A study of Mus musculus with 2 samples.

Results

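The 10 genes described here belong to the Nrf2 antioxidant response and were taken by name. They are the factor Nfe2l2 (Nrf2) with its regulators Keap1 and Bach1, and the targets Hmox1, Nqo1, Gclc, Gclm, Slc7a11, Txnrd1 and Srxn1. All 10 had a value in TPM, a length-scaled abundance, in both libraries, among 14662 genes with one, and all 10 passed the filter that a gene reach 1 TPM in M or MR, which 13719 genes did. RNA came from cultured bone marrow cells of wild-type mice, which received M-CSF before and throughout the comparison. The M culture had M-CSF alone and the MR culture had M-CSF with RANKL, the cytokine that drives osteoclast formation. The comparison asks what RANKL added to the M-CSF culture. The library labels give 2 days with M-CSF followed by 2 days with both cytokines, while the study's methods state a longer RANKL phase and do not name the day of the RNA-seq harvest. Each condition was 1 library, so no difference had a replicate check and no p-value was computed. Strain, sex and age of the mice, and any pooling, are not given in the sources used here.

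Nrf2 is a transcription factor that Keap1 holds in the cytosol and hands to a Cul3 ubiquitin ligase for degradation. When oxidants or electrophiles modify Keap1, Nrf2 escapes, pairs with a small Maf protein and binds antioxidant response elements in the promoters and enhancers of its targets. Bach1 also pairs with small Maf proteins and occupies many of the same elements as a repressor until heme displaces it. In osteoclast precursors RANKL is known to raise reactive oxygen species, which act as signals, and Nrf2 is known to restrain osteoclast formation.

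To show the regulatory sequence on which this system acts, the antioxidant response element TGACNNNGC was searched on both strands of RefSeq promoter windows on GRCm38.p6, each of 250 bases before and 50 bases after a transcription start. Windows were listed for 8 of the 10 members, and Hmox1 and Gclc were not matched. The element was found in 4 of their 10 windows (40%), which belonged to Nfe2l2, Gclm, Txnrd1 and Srxn1, and in 12.4% of all 32851 windows. The shorter AP-1 and Maf core TGAGTCA, added after the sequences were seen, was searched in the same way. It occurred among the members in the Srxn1 window alone, at 2 places, and in 5.2% of all windows. The 250 bases before the start are printed 5′ to 3′ on the gene's strand for the windows that held a match there, with the matched letters in capitals. They are shown because these genes lay on both sides of the comparison, with Txnrd1 and Gclm higher and Nfe2l2 and Srxn1 lower in MR.
Txnrd1, chr10:82858956-82859205, plus strand: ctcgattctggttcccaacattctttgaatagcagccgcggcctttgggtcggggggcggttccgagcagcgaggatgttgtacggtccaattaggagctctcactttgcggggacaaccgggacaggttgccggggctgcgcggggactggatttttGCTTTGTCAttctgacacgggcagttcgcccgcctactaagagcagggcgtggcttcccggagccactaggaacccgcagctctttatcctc
Gclm, chr3:122245307-122245556, plus strand: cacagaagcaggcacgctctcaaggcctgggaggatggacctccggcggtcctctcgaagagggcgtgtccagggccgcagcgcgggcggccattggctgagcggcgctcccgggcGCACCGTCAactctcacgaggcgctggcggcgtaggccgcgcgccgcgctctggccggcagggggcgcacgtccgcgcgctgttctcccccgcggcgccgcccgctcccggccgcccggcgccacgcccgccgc
Nfe2l2, chr2:75704664-75704913, minus strand: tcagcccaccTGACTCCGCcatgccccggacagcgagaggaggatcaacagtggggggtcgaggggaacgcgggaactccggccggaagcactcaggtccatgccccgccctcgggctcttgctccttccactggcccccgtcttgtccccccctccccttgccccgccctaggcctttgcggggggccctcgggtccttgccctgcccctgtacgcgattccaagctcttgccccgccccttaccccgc
Srxn1, chr2:152105274-152105523, plus strand: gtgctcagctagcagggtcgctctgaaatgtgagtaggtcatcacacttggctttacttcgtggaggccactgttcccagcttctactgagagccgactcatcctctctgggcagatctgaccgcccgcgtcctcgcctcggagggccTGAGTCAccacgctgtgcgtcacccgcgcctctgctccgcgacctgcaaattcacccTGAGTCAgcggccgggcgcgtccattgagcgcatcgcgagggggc
The match began 92 bases before the start in Txnrd1 and 134 bases before it in Gclm, both read from the opposite strand, and 240 bases before it in Nfe2l2. In Srxn1 the capitals mark TGAGTCA, at 102 and 45 bases before the start. With the letters gc after it, the stretch at 45 bases differs from TGACNNNGC only by G in place of C, so the search did not count it. The TGACNNNGC match in Srxn1 lay after the start, at base 29, and was read from the opposite strand. A match is a run of letters in this window and was not measured as a binding site here. No match in the windows of Keap1, Bach1, Nqo1 and Slc7a11 says only that the letters were absent there.

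Levels are TPM, which is scaled for transcript length and library size, and each gene's TPM is the sum over the loci that StringTie assembled from its reads. The aligned bases, estimated from the listed coverage and FPKM, were 3.63 Gb in M and 2.98 Gb in MR. Cell identity was read from marker genes. All 10 osteoclast markers were higher in MR by a log2 ratio above 1, and they summed to 152 TPM in M and 25318 TPM in MR. The 5 macrophage markers summed to 4211 TPM in M and 3356 TPM in MR. Of these, Csf1r had 697 in M and 872 in MR, Cd68 2607 and 2171, Itgam 171 and 135, Cd14 55.1 and 29.7, and Adgre1, which encodes F4/80, 681 and 148. The 7 neutrophil markers summed to 1187 in M and 805 in MR. The largest were S100a8, with 495 in M and 278 in MR, and S100a9, with 435 and 360. Camp had 96.2 and 53.4, Ltf 80.6 and 52.8, Mpo 55.3 and 32.2, Elane 21.8 and 26.4, and Ly6g 3.07 and 2.59. Some granulocyte RNA was thus present in both libraries, at a level that the sum does not measure. The 5 lymphoid markers summed to 7.46 and 7.04, with no Cd3e or Cd3g locus, the 4 mast cell and basophil markers to 3.85 and 0, the 4 dendritic cell markers to 55.9 and 51.4, and the 4 stromal markers to 12.9 and 26.7. In bulk RNA a smaller number of cells of a type and less RNA per cell cannot be told apart.

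The members differed in direction. Hmox1 and all 3 regulators were lower in MR, whereas Txnrd1, Gclm and Gclc were higher. Srxn1 was slightly lower, and Nqo1 and Slc7a11 were near the limit of assembly in both libraries. The log2 ratio sets MR over M after 1 is added to each TPM, and a log2 ratio beyond 1, a 2-fold difference, was the fixed size threshold. By this rule 1 member of 10 (10%) was above 1, against 21.0% of the 13719 genes, and 2 of 10 (20%) were below -1, against 13.2%. These shares are near the background and are no result about the members as a group. The median log2 ratio was -0.26 over the members and 0.20 over all genes, and 59.5% of all genes were higher in MR. Together the 10 members held 1093 TPM in M and 612 TPM in MR.

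**Figure D1:**
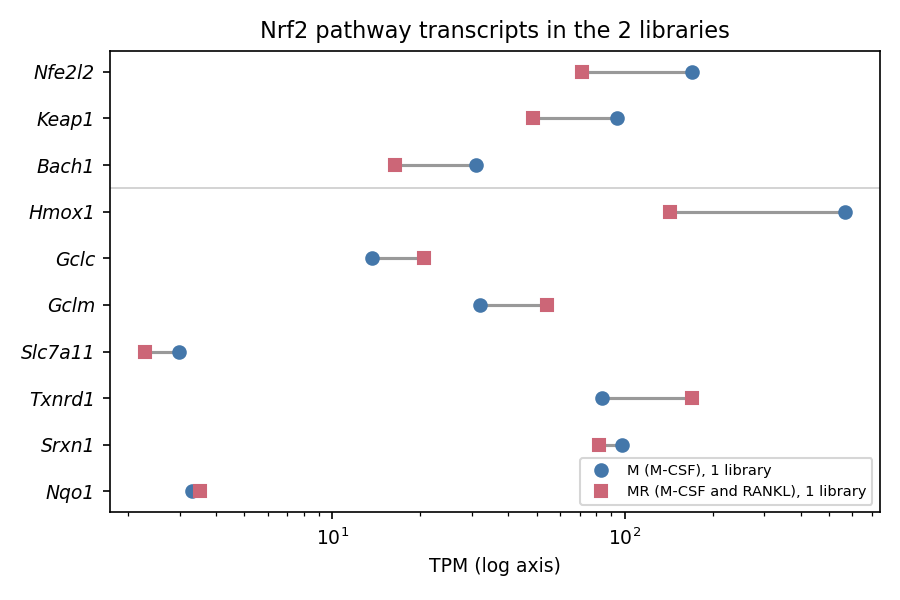
TPM of the 10 members (log axis) in the M library (circles) and the MR library (squares), with 1 library per condition and no error bars. The regulators (top 3 rows) and Hmox1 lie further left in MR, while Txnrd1, Gclm and Gclc lie further right.

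Nfe2l2, the gene for Nrf2 itself (chr2:75675513-75704641, minus strand, GRCm38), stood at 170.2 TPM in M and 71.6 TPM in MR. It was 2.38-fold lower in MR, with a 95% Wilson interval of 2.19 to 2.58. This interval and those that follow cover counting error only and rest on the read pairs that the FPKM corresponds to, here about 2359 in M and 783 in MR. The log2 ratio of Nfe2l2 was -1.24, and 9.55% of all genes had a lower one. Its locus ended 120 bases inside the annotated start in M and 70 bases inside it in MR, and held 96.6% and 97.9% of the gene's exon bases.

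Keap1, the adaptor that delivers Nrf2 to the ligase (chr9:21229730-21239361, minus strand), stood at 93.9 TPM in M and 48.6 TPM in MR. It was 1.93-fold lower (1.77 to 2.11), with a log2 ratio of -0.94, just inside the threshold. Nfe2l2 and Keap1 were thus both lower in MR. In TPM the level of Nfe2l2 was 1.81 times that of Keap1 in M and 1.47 times in MR. The listed coverage of Keap1 was 93.5% of what its FPKM corresponds to in M and 74.4% in MR, and on coverage per aligned Gb its log2 ratio was -1.28. On that unit Nfe2l2 had a log2 ratio of -1.29. The multiple of Nfe2l2 to Keap1 was then about the same in both libraries, so its lower value in MR depended on the unit.

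Bach1, the heme-sensitive repressor (chr16:87698945-87733346, plus strand), stood at 31.1 TPM in M and 16.4 TPM in MR, 1.90-fold lower in MR (1.68 to 2.15). Its log2 ratio was -0.88. In both libraries a further locus was assembled on the opposite strand over the last part of Bach1, with 3902 bases of Bach1 exon in M and 3910 in MR, and a TPM of 36.7 and 16.4. No annotated gene was matched to it. Reads of the 2 strands cannot be told apart here, because the strand setting of the libraries is not given in the sources used. With this locus added, a choice made once the data had been seen, Bach1 had 67.8 in M and 32.8 in MR and a log2 ratio of -1.03, beyond the threshold.

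Hmox1 encodes heme oxygenase-1, the inducible enzyme that cleaves heme to biliverdin, carbon monoxide and iron, and is a target of both Nrf2 and Bach1. The gene (chr8:75093621-75100589, plus strand) stood at 565 TPM in M and 142 TPM in MR. This was the largest difference among the members, 3.97-fold lower in MR (3.71 to 4.25), with a log2 ratio of -1.98 and 3.98% of all genes lower still. Hmox1 was also the most abundant member in M, at rank 265 of the genes tested, and stood at rank 1113 in MR. It supplied 51.7% of the members' summed TPM in M and 23.3% in MR. Hmox2, the constitutive heme oxygenase, had 393 and 199, so Hmox1 exceeded Hmox2 1.44-fold in M and stood at 0.715 of it in MR. Bach1 and Hmox1 were both lower in MR, and the Hmox1 level was 18.2 times that of Bach1 in M and 8.69 times in MR. These multiples leave out the opposite-strand locus over Bach1 and would be smaller with it. The macrophage markers differed among themselves, with Csf1r at a log2 ratio of 0.32, Cd68 at -0.26, Itgam at -0.34, Cd14 at -0.87 and Adgre1 at -2.20, and their part in the Hmox1 result was not tested.

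Gclc and Gclm encode the catalytic and the modifier subunit of glutamate-cysteine ligase, which performs the first step of glutathione synthesis. Gclc (chr9:77754535-77794485, plus strand) stood at 13.6 TPM in M and 20.6 TPM in MR, 1.51-fold higher (1.29 to 1.78), with a log2 ratio of 0.56. Gclm (chr3:122245557-122270732, plus strand) had 32.0 in M and 54.3 in MR, 1.70-fold higher (1.56 to 1.85), with a log2 ratio of 0.75. Both subunits were higher in MR and both stayed inside the threshold. In TPM the level of Gclm was 2.35 times that of Gclc in M and 2.64 times in MR. The listed coverage of Gclm in MR was 79.7% of what its FPKM corresponds to, and on coverage per aligned Gb its log2 ratio was 0.36. On that unit Gclc had a log2 ratio of 0.47. The multiple of Gclm to Gclc was then lower in MR, so the direction of its difference depended on the unit. A separate locus without a strand, present in MR only at 281 TPM, overlapped an exon of a noncoding Gclm transcript and was not counted in Gclm.

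Slc7a11 encodes xCT, the chain of the cystine and glutamate exchanger that imports the cystine for glutathione. The gene (chr3:49892526-50443614, minus strand) was assembled as 2 separate loci in each library, which together held 2.98 TPM in M and 2.28 TPM in MR. These values correspond to about 25 and 17 read pairs. The 2 loci held only 3.28% and 17.7% of the gene's exon bases in M, and 4.38% and 20.4% in MR. The ratio of MR to M was 0.763 with an interval from 0.416 to 1.40, so a difference was not detectable at this depth. Its partner Slc3a2, the heavy chain shared with other amino acid transporters, had 377 in M and 171 in MR (log2 ratio -1.14). The heavy chain stood at 126 times the level of Slc7a11 in M and at 74.9 times in MR.

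Txnrd1 encodes cytosolic thioredoxin reductase, the selenoenzyme that keeps thioredoxin reduced with NADPH. The gene (chr10:82833951-82897712, plus strand) stood at 83.4 TPM in M and 170.1 TPM in MR. It was 2.04-fold higher in MR (1.91 to 2.17), the largest difference upward among the members, and its log2 ratio of 1.02 was the only one above 1. It was below 1 in FPKM, in coverage per aligned Gb and under both other scalings, where the lowest value was 0.84. Txnrd1 replaced Hmox1 as the most abundant member, with 7.63% of the members' summed TPM in M and 27.8% in MR. The locus also covered Eid3, a small coding gene on the same strand inside Txnrd1, whose reads would be counted in this value. The 5′ end of the locus lay 16 bases after the RefSeq start of the printed window in M and 3 bases after it in MR. The most upstream annotated start lay 25271 and 25258 bases further upstream and was reached in neither library.

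Srxn1 encodes sulfiredoxin, which repairs hyperoxidised peroxiredoxins. The gene (chr2:152105516-152111376, plus strand) stood at 97.4 TPM in M and 81.9 TPM in MR, 1.19-fold lower (1.10 to 1.29), with a log2 ratio of -0.25. Its locus began at the same base in both libraries, 215 bases inside the annotated start. Nqo1 encodes a quinone reductase that is often used as a reporter of Nrf2 activity. The gene (chr8:107388225-107403206, minus strand) stood at 3.32 TPM in M and 3.53 TPM in MR, from about 21 and 20 read pairs. Its ratio was 1.06 with an interval from 0.581 to 1.94, and no difference was detectable at this depth.

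Ranked by TPM in M, the order was Hmox1, Nfe2l2, Srxn1, Keap1, Txnrd1, Gclm, Bach1, Gclc, Nqo1 and Slc7a11. In MR the order was Txnrd1, Hmox1, Srxn1, Nfe2l2, Gclm, Keap1, Gclc, Bach1, Nqo1 and Slc7a11. Bach1 was placed without the opposite-strand locus over it. With that locus it had 67.8 in M and 32.8 in MR, which would put it above Gclm in M and above Gclc in MR. The least abundant pair was the same in both orders, and the leading places changed. Hmox1 was 6.78 times as abundant as Txnrd1 in M and stood at 0.836 of it in MR. With 1 library each, whether neighbours in an order differ beyond their spread could not be assessed. The counting interval of the ratio left out 1 for 8 of the 10 members, all but Nqo1 and Slc7a11. These intervals were computed for the members only, so no share over all genes stands beside this count. They narrow with the number of read pairs and hold no replicate spread, so the count is no result about the members as a group.

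**Figure D2:**
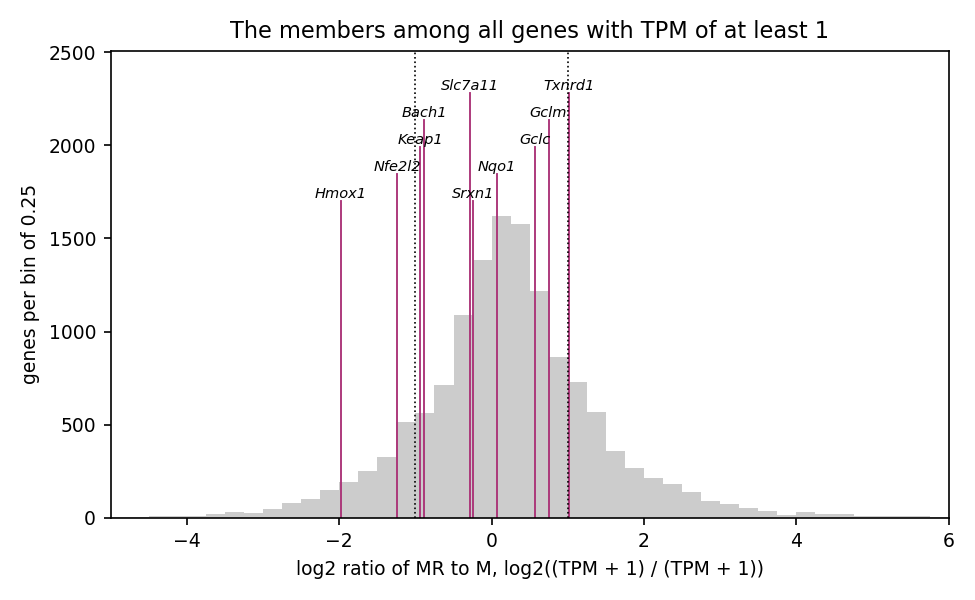
Histogram of the log2 ratio of MR to M over 13719 genes (grey, y axis in genes per bin, values beyond the axis not drawn), with a line for each of the 10 members and dotted lines at the size threshold of 1. The members spread from Hmox1 at -1.98 to Txnrd1 at 1.02, on both sides of the median of all genes at 0.20.

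Genes that act with the members were described as lists, by counts and median, beside the 21.0% of all genes above 1, the 13.2% below -1 and the median of 0.20. Among 9 related CNC factors, small Maf partners and Keap1 pathway genes, 2 were above 1 and 0 below -1, with a median of 0.11. The 2 were Maff, with no locus in M and a TPM of 7.40 in MR, and Bach2, with 0.116 and 2.48, both of low level and named after their values were seen. Mafg, the small Maf partner usually studied with Nrf2, had 30.0 in M and 32.5 in MR (log2 ratio 0.11). Cul3 had 29.2 and 42.9, with the largest log2 ratio upward among the more abundant genes of the list at 0.54, and Mafk the lowest at -0.57, from 28.5 to 18.8. Sqstm1, the p62 protein that sequesters Keap1, had 667 and 897.

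Of 17 tested genes of glutathione synthesis, reduction and use, 8 were above 1 (47.1%), 6 below -1 (35.3%) and 3 between. Gss, which completes glutathione, had 19.5 in M and 54.3 in MR (log2 ratio 1.43). Gsr, which regenerates reduced glutathione, had 50.1 and 134 (log2 ratio 1.40). These enzymes were thus higher in MR together with Gclc and Gclm. Gstt2, a glutathione transferase, had the largest log2 ratio upward at 2.88, from 5.20 to 44.7, and the microsomal transferase Mgst1 the lowest at -2.19, from 143 to 30.5. The list pulled in both directions, with a median of 0.36.

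In the thioredoxin and peroxiredoxin system, 3 of 12 genes were above 1, 3 below -1 and 6 between, and the median was 0.40. Thioredoxin itself, Txn1, stood at 841 in M and 849 in MR (log2 ratio 0.01), beside the higher level of its reductase Txnrd1. The level of Txn1 was therefore 10.1 times that of Txnrd1 in M and 4.99 times in MR. Prdx1, an abundant cytosolic peroxiredoxin and substrate of sulfiredoxin, had 3202 and 995 (log2 ratio -1.68). The mitochondrial Prdx3 had the largest log2 ratio upward at 1.77, from 43.0 to 149, and Prdx5 the lowest at -1.99, from 793 to 199. Prdx1 was 32.9 times as abundant as Srxn1 in M and 12.2 times in MR.

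Heme breakdown and iron storage and export was the list with the lowest median among the 7 related lists, -1.24, with 4 of 6 genes below -1 (66.7%) and 0 above 1. Slc40a1, the iron exporter ferroportin, had 132 in M and 22.4 in MR (log2 ratio -2.51). Blvrb, a biliverdin reductase, had 387 and 189 (log2 ratio -1.03). Both ferritin chains, which store the iron that heme oxygenase releases, were lower, Fth1 from 26369 to 6737 and Ftl1 from 44296 to 16111. The smallest difference was in Blvra, from 191 to 128. Hmox1 and this list were lower together. The ferritin chains are among the most abundant transcripts, and TPM computed without them and the other most abundant genes gave Hmox1 a log2 ratio of -2.11.

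Of 6 genes of NADPH supply, 1 was above 1 and 1 below -1. Me1, malic enzyme, had 8.90 and 19.0 with a log2 ratio of 1.01, and G6pdx, the entry enzyme of the pentose phosphate pathway, had 283 and 96.1 with -1.55. Of 13 tested genes of other detoxification, 1 was below -1 and 0 above 1, with a median of -0.60. Cbr3, a carbonyl reductase, was the lowest at -1.34, from 28.4 to 10.6, and the aldo-keto reductase Akr1b8 the highest at 0.68, from 150.3 to 241. No locus was listed for Gsta4 or Aldh3a1 in either library.

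**Figure D3:**
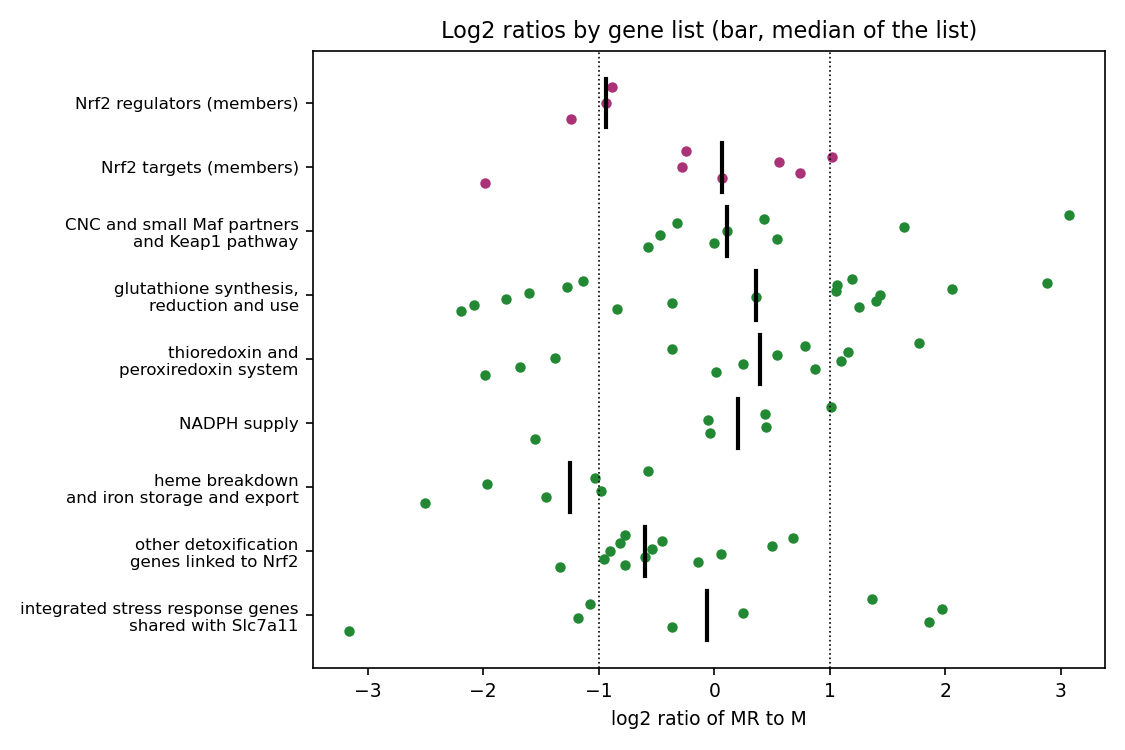
Log2 ratio of MR to M for each tested gene (points) of the member groups and 7 related lists, with the list median as a bar and dotted lines at 1 and -1. The heme and iron list lies to the left with a median of -1.24, while the glutathione list has genes on both sides.

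The values of the members depended on how the libraries were scaled. Median-of-ratios scaling over 11578 genes divided each MR value by 1.13 and so lowered the log2 ratios of abundant genes by 0.18. Under it the members past the threshold were 0 above and 4 below, the latter being Hmox1, Nfe2l2, Keap1 and Bach1, against 17.7% of all genes above 1 and 15.6% below -1. TPM without the mitochondrial and 20 most abundant genes gave the same counts of members, against 19.2% and 15.8%. Under median-of-ratios scaling Nqo1 changed sign, from 0.07 to -0.07 (and to -0.02 on coverage per aligned Gb), as did the medians of the 7 targets and of the CNC and Maf list. The glutathione list then had 6 genes above 1 and 7 below -1, the thioredoxin list 2 and 3, the NADPH list 0 and 1, the heme and iron list 0 and 5, and the detoxification list 0 and 3. Under both settings Hmox1 and the 3 regulators remained lower and Txnrd1, Gclm and Gclc remained higher in MR.

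**Figure D4:**
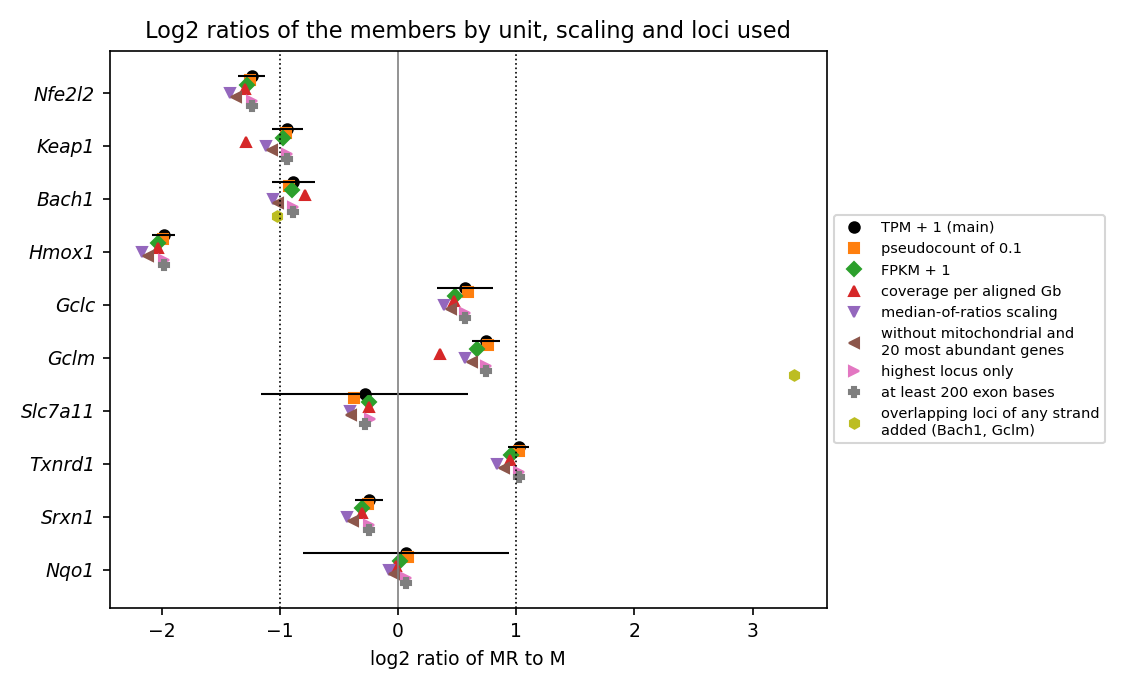
Log2 ratio of MR to M of each member under the main setting (black, with its 95% counting interval) and under each other unit, scaling and choice of loci (coloured marks). Hmox1 and Nfe2l2 stay below -1 throughout, Txnrd1 lies around 1, and Gclm stands apart at 3.35 where an overlapping locus without a strand is added to it.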

How the data were processed

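The deposited tables hold 1 library each. Per the labels and the study's methods, the authors trimmed adaptors with Trim Galore, aligned paired reads of 150 bases to mm10 (GRCm38) with HISAT2 and ran StringTie with GENCODE vM27; versions are not given in the sources used here. The authors listed a coverage signal (read depth per base, not normalized), FPKM and TPM for each entry. In each library the TPM of the assembled loci sums to its nominal total. Entries with gene names carry positions of another build (GRCm39) and were not used.

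Assembled loci were matched by position to GENCODE vM21 genes: a locus went to the gene of its strand (either strand where it had none) whose exons it overlapped most, with a minimum of 50 exon bases. This covered 95.4% of the TPM in M and 96.9% in MR. A locus that held at least 50% of another coding gene's exon bases was treated as shared. A gene without a locus was set to 0, and one lying inside another gene's locus got no value. Dividing coverage by FPKM gives the aligned bases, taken as the commonest quotient over entries whose FPKM exceeds 5. Read pairs were estimated from FPKM, aligned bases and the exon bases of the locus, up to the length of the gene's first-numbered transcript, at 300 bases a pair, and gave Wilson intervals at 95%. The assignment was tested on simulated loci that spanned nearly whole coding transcripts on their own strand. Split loci and loci without a strand or on the opposite strand were not part of that test.

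The members and lists were chosen with earlier results of these data known. All members were named, and of each of the 7 related lists the highest and lowest log2 ratio where either library reached 10 TPM, with partner genes of the members. Marker lists are given as sums, with all 5 macrophage markers and all 7 neutrophil markers named after their values were seen. One further marker list is not reported here. Alternatives were a pseudocount of 0.1, FPKM, coverage per aligned Gb, 2 scalings, the highest locus only, 200 exon bases, a log2 threshold of 2, and other filters. Scripts ran in Python 3.11.15 with scipy 1.17.1, pandas 2.3.3, numpy 2.4.6 and, for plots, matplotlib 3.10.9.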

Additional observations from a re-analysis of the deposited data

Results flagged for a closer look

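A locus of 324 bases without a strand was assembled inside Gclm in MR, at chr3:122256722-122257045, and none was assembled there in M. It attracted attention because it is outside the main measurement and has a signal in MR alone. Its TPM in MR was 281, which is 5.17 times the TPM of Gclm in the same library, at a coverage of 373 or about 402 read pairs. All 324 bases lie in an exon of Gm17494, a noncoding gene on the opposite strand, and 250 of them also lie in an exon of Gclm that belongs to a noncoding Gclm transcript. The locus was given to Gm17494, and the origin of its reads was not tested.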

How the results depend on the processing

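Of 72 member ratios under alternatives, 57 stayed within the counting interval of the reported value, 15 moved and 0 reversed among those past the threshold. Of the 15, 6 each came with median-of-ratios scaling and with TPM without the mitochondrial and 20 most abundant genes. These settings took the median of all genes from 0.20 to 0.03 and 0.08, and the share of higher genes among those past the threshold from 61.5% to 53.1% and 54.9%. The 3 members past the threshold became 0 at a log2 threshold of 2. With overlapping loci of any strand added, chosen after the data were seen, they became 5, and Gclm took a log2 ratio of 3.35. The 4694 genes past the threshold (2886 higher and 1808 lower) became 1488 (960 higher) when that threshold was 2 and 2668 (1645 higher) among genes reaching 10 TPM, since both admit fewer genes by construction. Under the other alternatives the totals of genes and of members past the threshold stayed within 1.5 times, but under both scalings the members above 1 went from 1 to 0, those below -1 from 2 to 4, the regulators below -1 from 1 to 3 and the detoxification genes below -1 from 1 to 3. No paired analysis was possible because each condition has 1 library, and leaving out a replicate was likewise not possible. Depth limits Nqo1 and Slc7a11 most, with at most 25 read pairs in a library.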

Other observations

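Slc7a11 is also a target of the stress factor Atf4, and 8 genes of the integrated stress response were read beside it. Of these, 3 had a log2 ratio above 1 (37.5%) and 3 below -1 (37.5%), with a median of -0.06. Over all genes the shares were 21.0% and 13.2%, and the median was 0.20. Atf4 stood at 217 TPM in M and 257 TPM in MR. Asns, asparagine synthetase, had the largest log2 ratio upward at 1.97, from 18.7 to 76.5, and the stress factor Atf3 the lowest at -3.16, from 408 to 44.8. Chac1, which degrades glutathione, had 2.79 and 12.8, and Slc7a5, another partner of Slc3a2, had 5.27 and 15.2. Ddit3 had 231 and 101, at a locus shared with a second annotated gene of that name, and Trib3 had 7.93 and 3.23. Chac1, Slc7a5, Ddit3 and Trib3 were named after their values were seen.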
